A study of Mus musculus with 6 samples.

Results

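The acyl-CoA thioesterase family was followed through 10 genes, Acot1, Acot2, Acot3, Acot4, Acot7, Acot8, Acot9, Acot11, Acot12 and Acot13, which were matched by symbol among the 46095 gene symbols of the deposited table. The study sequenced RNA from mouse liver labelled as hepatocytes, with 3 HFD-ARRB1-KO libraries (Arrb1 knocked out) set against 3 HFD-WT libraries (wild type). All mice were C57BL/6, and all had been on a high-fat diet for 26 weeks. Both groups therefore show the family on that diet only. Titles set the groups, since they and the study's own description name ARRB1 throughout, whereas the genotype field reads ARRB2 for knockout replicate 2 and ARRB3 for knockout replicate 3. The labels do not say whether a replicate was an animal, a pool or a preparation, so every p-value here measures the spread between libraries, which may be technical.

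Acyl-CoA thioesterases split an activated fatty acid, the acyl-CoA ester, into free fatty acid and coenzyme A, and so run opposite to the acyl-CoA synthetases that load fatty acids onto coenzyme A. Members sit in the cytosol, in mitochondria and in peroxisomes, where they set the balance between acyl-CoA, free fatty acid and free coenzyme A. Type I members (Acot1 to Acot6) share an alpha/beta-hydrolase fold, and type II members (Acot7 and above) are built on the hotdog fold. In mouse liver several type I genes are known targets of PPARα, the nuclear receptor that fatty acids activate. Mouse has more type I genes than human, since the cluster that holds them has expanded in rodents.

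Arrb1, the knocked-out gene, which encodes the adaptor protein beta-arrestin 1, stood at 0.918, 1.05 and 1.16 FPKM in knockout libraries, against 3.86, 22.7 and 16.9 FPKM in wild-type libraries. FPKM is the number of sequenced fragments scaled to gene length and to library size, so levels can be compared between genes. Arrb1 was lower in all knockout libraries (log2 difference -2.64 ± 0.514 SE, adjusted p = 0.0275 with limma), and wild-type replicate 1 lay far below the other wild-type libraries. That call was lost in limma when knockout replicate 1 (adjusted p = 0.0596), 2 (0.1) or 3 (0.0669) or wild-type replicate 2 (0.0916) or 3 (0.07) was left out. The call was also lost with robust eBayes (limma adjusted p = 0.0769) and with no filter on low values (0.117). With wild-type replicate 1 left out it held, at a difference of -3.33. Estimated depth was 13900000 to 35100000 fragments in the knockout libraries and 27900000 to 33300000 fragments in the wild-type libraries, with knockout replicate 1 the shallowest. Fold changes in the following are differences of log2(FPKM + 1), knockout minus wild type, with adjusted p from limma over the 10633 genes that averaged at least 1 FPKM. Genes with an adjusted p under 0.05 count as called. Over these genes 564 were higher and 170 lower in knockout libraries. Higher genes made up 76.8% of all calls on the deposited scale, 60.9% once libraries were scaled by median of ratios and 64.5% once they were quantile normalized. With every library rescaled to the same FPKM total (TPM) the share was 85.2%.

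The type I genes form 1 run on chromosome 12 of GRCm38, all on the plus strand between 83987861 and 84111349, a stretch of 123489 bases with 6 genes in the order Acot2, Acot1, Acot4, Acot3, Acot5 and Acot6. Acot2 (83987861 to 83993873) and Acot1 (84009490 to 84018371) are direct neighbours, and their aligned coding sequences were identical at 1178 of 1236 bases, or 95.3%. The other coding pairs of the cluster shared between 72.8% and 85.4% of bases. The longest stretch identical between Acot1 and Acot2 ran for 273 bases. The last 60 aligned coding bases are shown because they let the copies be compared by eye, 5′ to 3′ on the coding strand, with capitals where a gene differs from Acot1.
Acot1: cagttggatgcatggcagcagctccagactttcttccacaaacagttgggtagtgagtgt
Acot2: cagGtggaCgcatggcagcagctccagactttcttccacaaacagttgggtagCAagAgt
Acot3: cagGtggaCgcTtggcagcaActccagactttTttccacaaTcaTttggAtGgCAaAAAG
Acot4: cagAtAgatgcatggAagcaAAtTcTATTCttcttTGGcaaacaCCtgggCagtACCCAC
In this stretch Acot2 differed from Acot1 at 5 bases, Acot3 at 15 and Acot4 at 23. Over whole transcripts, 24.5% of the 50-base windows of Acot2 also occurred in Acot1, and 13.6% of those of Acot1 occurred in Acot2. A read that falls in such a window could have been counted for either gene, and the authors' treatment of such reads is not given in the sources used here. Levels of Acot1 and Acot2 are therefore uncertain as single genes. Counted on either strand, 21.3% of the windows of Acot3 and 13.4% of those of Acot4 also occurred in other genes. The same limit holds for their levels.

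**Figure D1:**
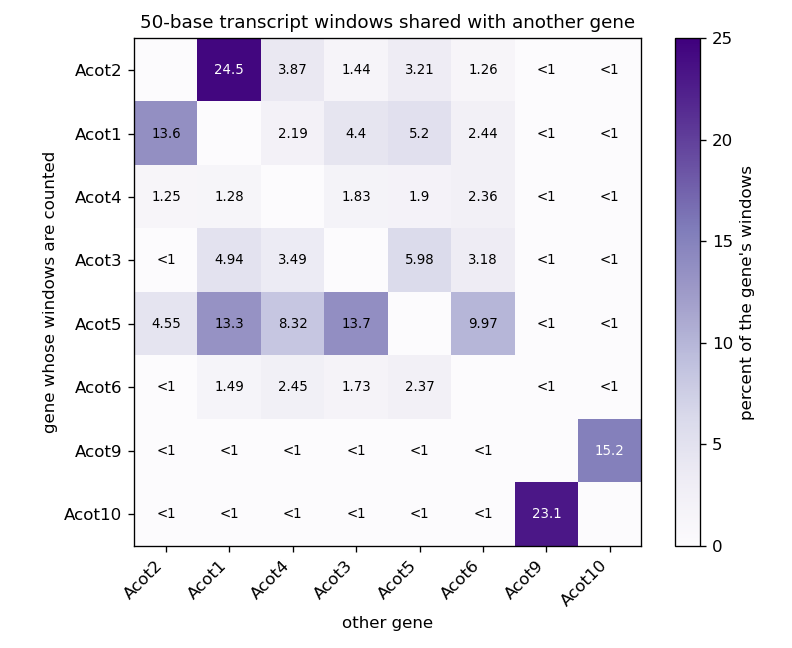
Percent of each gene's 50-base transcript windows (rows) that also occur in another gene's transcripts (columns), GENCODE vM21, with darker cells for a larger share. The largest share among the cluster genes is the 24.5% of Acot2 windows found in Acot1, and outside the cluster Acot9 shares 15.2% of its windows with Acot10.

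The type II genes lie apart from one another. Acot7 (152178134 to 152271855, plus strand) and Acot11 (106744555 to 106804998, minus strand) are on chromosome 4, and Acot12 (91741512 to 91786148, plus strand) and Acot13 (24817948 to 24831540, minus strand) are on chromosome 13. Acot8 is on chromosome 2 (164792765 to 164804882, minus strand), and Acot9 is on the X chromosome (155262443 to 155297654, plus strand). All 10 members are annotated as protein-coding. Acot7 and Acot13 shared no 50-base window with another gene. Acot8 and Acot11 overlap exons of genes on the opposite strand, Snx21 over 246 bases and Fam151a over 1263 bases, and since the strand setting of the libraries is not given in the sources used here, reads of such partners could not be told apart. The same limit holds for Acot3 and Acot4, which overlap 4732463B04Rik on the opposite strand over 312 and 615 bases, and for Acot12, which overlaps 4833422C13Rik over 149 bases. Acot3 (396 bases) and Acot4 (33 bases) also overlap Gm49366 on their own strand.

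PPARα binds the DR1 element, a direct repeat of AGGTCA with any 1 base as spacer, and promoters were therefore searched for it on both strands. Windows ran from 250 bases before to 50 bases after the annotated start (RefSeq, GRCm38.p6), and 9 of the 10 members matched an entry, Acot13 being the one without. At most 2 mismatches to the repeat were found in 2 members, Acot12 (1 mismatch, first base at position -110 from the start) and Acot4 (2 mismatches, at position -13), against 3.86% of 32851 promoters. The single AGGTCA, which is part of the repeat, occurred in 16.3% of all promoters and, among members, in Acot12, Acot4 and Acot3. Acot2, Acot8 and Acot11, which were called higher in knockout libraries, held no match. The promoters with a match to the repeat are printed with the matched bases in capitals (the repeat reads on the opposite strand), beside those of Acot2 and Acot8.
Acot12 chr13:91741271-91741570 (+ strand): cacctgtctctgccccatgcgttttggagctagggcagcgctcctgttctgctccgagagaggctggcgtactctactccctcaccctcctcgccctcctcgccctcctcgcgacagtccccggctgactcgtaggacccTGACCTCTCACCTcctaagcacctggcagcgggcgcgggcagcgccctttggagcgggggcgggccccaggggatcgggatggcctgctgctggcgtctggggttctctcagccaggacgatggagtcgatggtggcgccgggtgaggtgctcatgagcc
Acot4 chr12:84038129-84038428 (+ strand): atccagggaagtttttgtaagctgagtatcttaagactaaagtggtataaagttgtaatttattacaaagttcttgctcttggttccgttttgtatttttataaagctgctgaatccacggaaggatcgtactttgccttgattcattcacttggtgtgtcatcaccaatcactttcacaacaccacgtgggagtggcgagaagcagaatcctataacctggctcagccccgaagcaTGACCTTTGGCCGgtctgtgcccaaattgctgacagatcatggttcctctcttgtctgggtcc
Acot2 chr12:83987611-83987910 (+ strand): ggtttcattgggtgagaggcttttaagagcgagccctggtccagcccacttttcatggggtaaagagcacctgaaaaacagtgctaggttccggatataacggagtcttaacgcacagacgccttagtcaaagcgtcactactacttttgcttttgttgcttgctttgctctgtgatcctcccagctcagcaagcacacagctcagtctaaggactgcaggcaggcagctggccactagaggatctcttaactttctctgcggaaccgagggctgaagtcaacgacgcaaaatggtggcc
Acot8 chr2:164804832-164805131 (− strand): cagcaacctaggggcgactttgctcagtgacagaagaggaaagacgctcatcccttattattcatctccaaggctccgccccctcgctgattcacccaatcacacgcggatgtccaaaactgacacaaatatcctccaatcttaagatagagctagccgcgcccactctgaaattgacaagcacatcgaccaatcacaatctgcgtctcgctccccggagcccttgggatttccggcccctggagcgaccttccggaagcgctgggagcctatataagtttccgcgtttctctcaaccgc
A match is a description of letters, not of binding, and a window without one says only that these letters are not in it. The promoters also differed in CG dinucleotides, with 22 in Acot12, 19 in Acot8, 10 in Acot2 and 7 in Acot4, against a median of 7 over all promoters.

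Of the 10 thioesterase genes, 3, namely Acot2, Acot8 and Acot11, were higher in knockout libraries at an adjusted p under 0.05 in limma, and none was lower. Over all genes tested, 5.30% were called higher and 1.60% lower. At an unadjusted p under 0.05, limma gave 7 members higher and 0 lower, and voom on whole reads recovered from the FPKM values gave 6 and 0. The share of all genes at that unadjusted level was not counted, so these counts cannot be read as a result about the family. After adjustment voom gave 3 higher and 0 lower, where 7.50% of its genes were called higher. The count of members called higher was 1 when knockout replicate 1 or 2 was left out, 2 for knockout replicate 3, 1 for wild-type replicate 1, 0 for wild-type replicate 2 and 2 for wild-type replicate 3. Acot2 was the 1 member still called on the median-of-ratios scale, and likewise on the quantile-normalized one. All 10 members passed the filter on low values, Acot11 through its knockout values (wild-type mean 1.00 FPKM), and without Acot11 the count called is 2 of 9. The knockout mean exceeded the wild-type mean for 9 of 10 members, and over all genes tested 63.6% had a positive difference. The median difference of the members was 0.45, against 0.07 over all genes tested. Knockout and wild-type libraries did not overlap for 5 members (Acot2, Acot8, Acot9, Acot11 and Acot13), each higher in knockout, where 23.4% of all genes tested were separated in that direction and 7.81% in the other. Acot11, which entered through its knockout values, is part of the positive differences, the median and the separated members. These were bulk libraries, in which fewer cells of a type and less RNA per cell cannot be told apart.

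**Figure D2:**
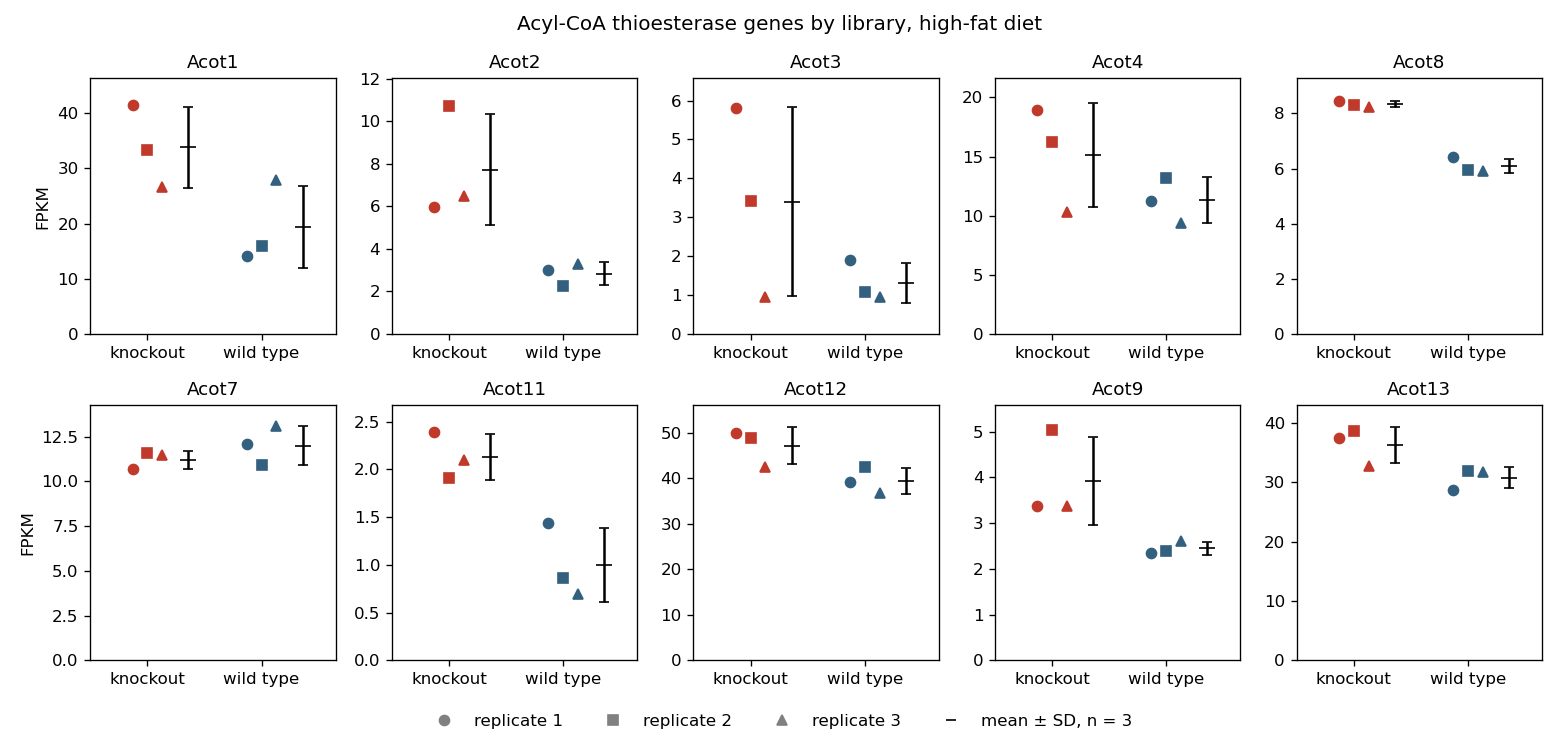
FPKM of the 10 members in each knockout (left, red) and wild-type (right, blue) library, each panel on its own linear axis from 0, with the replicate given by marker shape and mean ± SD (n = 3) beside the points. Acot8 shows tight groups, at 8.24 to 8.45 FPKM in knockout and 5.92 to 6.40 FPKM in wild-type libraries, and Acot1 shows wild-type replicate 3 among the knockout values.

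Acot2, the mitochondrial type I enzyme for long-chain acyl-CoA, had 5.95, 10.7 and 6.47 FPKM in knockout libraries, against 2.99, 2.23 and 3.28 FPKM in wild-type libraries. The lowest knockout library stood above the highest wild-type library, and knockout replicate 2 was well above the other knockout libraries. Acot2 averaged 7.71 ± 2.61 FPKM in knockout and 2.83 ± 0.543 FPKM in wild-type libraries (SD, n = 3 each), a ratio of means of 2.72, and it rose by 1.15 ± 0.207 (log2 difference ± SE, limma adjusted p = 0.0221). The exact two-sided permutation test gave p = 0.1, the smallest that 3 libraries against 3 allow. Behind these values lay 182, 826 and 415 fragments in knockout and 219, 137 and 219 in wild-type libraries. Leaving out wild-type replicate 1 (limma adjusted p = 0.0565) or wild-type replicate 2 (limma adjusted p = 0.088) ended the call, and it held when any of the other 4 libraries was left out.

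Acot1, the cytosolic near-copy of Acot2, had 41.4, 33.4 and 26.7 FPKM in knockout libraries, against 14.2, 16.0 and 27.9 FPKM in wild-type libraries. Wild-type replicate 3 exceeded knockout replicate 3, so the groups overlapped. Mean levels were 33.8 ± 7.39 FPKM in knockout and 19.4 ± 7.43 FPKM in wild-type libraries (SD, n = 3 each), and the difference of 0.81 ± 0.252 did not pass (limma adjusted p = 0.0966). Without wild-type replicate 3 the difference was 1.09 and passed (limma adjusted p = 0.0325). Summed over Acot1 and Acot2, which depends less on how reads were split between the copies, the level was 47.4, 44.1 and 33.1 FPKM in knockout and 17.2, 18.2 and 31.2 FPKM in wild-type libraries. The sums did not overlap, although wild-type replicate 3 came close to knockout replicate 3. The ratio of Acot1 to Acot2 was 6.96, 3.12 and 4.12 in knockout and 4.77, 7.16 and 8.49 in wild-type libraries, and overlapped between groups.

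Acot3, a peroxisomal enzyme for long-chain acyl-CoA that human lacks, was the most variable member, with 5.82, 3.41 and 0.956 FPKM in knockout libraries and 1.90, 1.09 and 0.944 FPKM in wild-type libraries. Knockout replicate 3 was as low as wild-type replicate 3, at 79 and 81 fragments, and the groups overlapped. The difference of 0.77 ± 0.412 did not pass (limma adjusted p = 0.282). Without knockout replicate 3 it was 1.27 and passed (limma adjusted p = 0.0432). Acot4, the peroxisomal enzyme that in mouse splits succinyl-CoA and other dicarboxylyl-CoA esters, had 18.9, 16.2 and 10.3 FPKM in knockout libraries and 11.2, 13.2 and 9.38 FPKM in wild-type libraries. Its groups overlapped too, and its difference of 0.37 ± 0.213 did not pass (limma adjusted p = 0.321). For all of Acot1, Acot3 and Acot4, knockout replicate 1 was the highest and knockout replicate 3 the lowest knockout library. The sum of Acot1 to Acot4 was 72.1, 63.7 and 44.4 FPKM in knockout and 30.3, 32.5 and 41.5 FPKM in wild-type libraries, and did not overlap.

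The remaining cluster genes were near 0. Acot5, a peroxisomal enzyme of mouse, was at 0.0474 FPKM in knockout replicate 1 and listed at 0 in the other 5 libraries. Acot6 had 0.434, 0.438 and 0.658 FPKM in knockout and 0.214, 0.256 and 0.163 FPKM in wild-type libraries, from 11, 28 and 35 fragments in knockout and 13, 13 and 9 in wild-type libraries. These groups did not overlap (exact permutation p = 0.1), but the gene was under the level that entered limma.

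Among the type II genes, Acot8, the peroxisomal thioesterase of broad chain length that is inhibited by free coenzyme A, had 8.45, 8.32 and 8.24 FPKM in knockout libraries, against 6.40, 5.94 and 5.92 FPKM in wild-type libraries. The groups were well apart and the libraries within each group were close. Acot8 averaged 8.34 ± 0.107 FPKM in knockout and 6.09 ± 0.271 FPKM in wild-type libraries (SD, n = 3 each), a ratio of 1.37, and it rose by 0.40 ± 0.0797 (limma adjusted p = 0.0301, exact permutation p = 0.1). Leaving out any 1 of the 6 libraries ended the call, with limma adjusted p between 0.0599 and 0.102 and a difference between 0.38 and 0.43. Median-of-ratios scaling (0.31, limma adjusted p = 0.0662) and quantile normalization (0.32, limma adjusted p = 0.0694) ended it as well. Snx21, which overlaps Acot8 on the opposite strand, had 3.18, 3.41 and 2.95 FPKM in knockout and 2.04, 2.36 and 3.17 FPKM in wild-type libraries, with groups that overlapped, and its part in the Acot8 value was not tested.

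Acot11, also called Them1 or BFIT, a long-chain thioesterase with a lipid-binding START domain that is best known from brown fat, had 2.39, 1.91 and 2.10 FPKM in knockout libraries, against 1.44, 0.860 and 0.699 FPKM in wild-type libraries. Every knockout library was above every wild-type library, and wild-type replicate 1 was the nearest. The mean was 2.13 ± 0.241 FPKM in knockout and 1.00 ± 0.390 FPKM in wild-type libraries (SD, n = 3 each), a ratio of 2.13, and Acot11 rose by 0.66 ± 0.157 (limma adjusted p = 0.0487). The wild-type mean lay at the level that decided which genes were tested, so Acot11 entered through its knockout values. The call was lost without knockout replicate 1 (limma adjusted p = 0.0991), 2 (0.119) or 3 (0.116) and without wild-type replicate 2 (0.155) or 3 (0.105), and held only without wild-type replicate 1. Fam151a, its partner on the opposite strand, reached at most 0.0903 FPKM in any library.

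Acot12, the cytosolic enzyme that splits acetyl-CoA and carries a START domain, was the most abundant member in every library, with 49.9, 48.9 and 42.4 FPKM in knockout and 39.1, 42.4 and 36.7 FPKM in wild-type libraries. Knockout replicate 3 lay just under wild-type replicate 2, so the groups overlapped by less than the rounding of these values. The difference was small at 0.25 ± 0.0986 and did not pass (limma adjusted p = 0.169). Acot13, or Them2, a small mitochondria-associated thioesterase for long-chain acyl-CoA, had 37.5, 38.6 and 32.8 FPKM in knockout and 28.7, 32.0 and 31.7 FPKM in wild-type libraries. Its groups did not overlap, by a margin of less than 1 FPKM, and its difference of 0.23 ± 0.0943 did not pass (limma adjusted p = 0.183).

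Acot9, a mitochondrial thioesterase of the inner membrane and matrix, had 3.38, 5.04 and 3.37 FPKM in knockout libraries, against 2.35, 2.40 and 2.61 FPKM in wild-type libraries. The groups did not overlap, and knockout replicate 2 was well above the rest, but the difference of 0.50 ± 0.143 did not pass (limma adjusted p = 0.0807). Acot10, its intronless mouse copy, was listed at 0 in every library, although 15.2% of the Acot9 windows also occur in it, so the Acot9 level is uncertain as that of a single gene. Acot7, a cytosolic thioesterase best known from brain, was the one member with a lower knockout mean, at 10.7, 11.6 and 11.5 FPKM in knockout and 12.1, 10.9 and 13.1 FPKM in wild-type libraries. Its groups overlapped and its difference was -0.09 ± 0.0928 (limma adjusted p = 0.594).

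**Figure D3:**
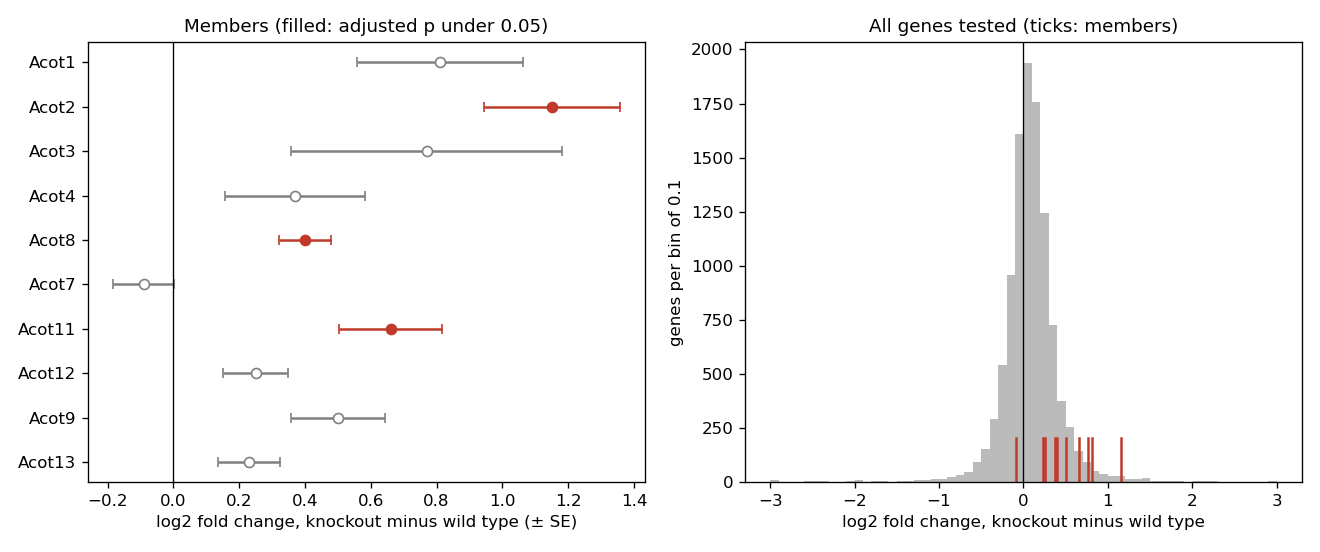
Left, log2 difference ± SE (knockout minus wild type, on log2(FPKM + 1)) of the 10 members, filled red where the limma adjusted p was under 0.05. Right, the same difference for all 10633 genes tested in bins of 0.1, with members as red ticks; the members' median was 0.45, against 0.07 for all genes tested.

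Levels within the family spanned a wide range, and the order was close in both groups. In knockout libraries the means ran from Acot12 (47.1 FPKM) over Acot13 (36.3), Acot1 (33.8), Acot4 (15.1), Acot7 (11.2), Acot8 (8.34), Acot2 (7.71), Acot9 (3.93) and Acot3 (3.40) to Acot11 (2.13). The neighbours Acot13 and Acot1, Acot4 and Acot7, Acot8 and Acot2, Acot9 and Acot3, and Acot3 and Acot11 had overlapping library values. In wild-type libraries Acot12 (39.4 FPKM), Acot13 (30.8) and Acot1 (19.4) again led, Acot7 (12.0) stood above Acot4 (11.3), and Acot8 (6.09), Acot2 (2.83), Acot9 (2.45), Acot3 (1.31) and Acot11 (1.00) followed. There, the neighbours Acot7 and Acot4, Acot2 and Acot9, and Acot3 and Acot11 overlapped.

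Summed over all 10 members, transcript level was 184, 178 and 145 FPKM in knockout libraries, against 120, 127 and 132 FPKM in wild-type libraries. The sums were 169 ± 21.3 FPKM in knockout and 127 ± 5.96 FPKM in wild-type libraries (SD, n = 3 each) and did not overlap. Grouped by the compartment each enzyme is known for, the cytosolic members Acot1, Acot7, Acot11 and Acot12 summed to 104, 95.8 and 82.6 FPKM in knockout and 66.9, 70.2 and 78.4 FPKM in wild-type libraries. The mitochondrial members Acot2, Acot9 and Acot13 summed to 46.9, 54.3 and 42.7 FPKM in knockout and 34.0, 36.6 and 37.6 FPKM in wild-type libraries. Both sums were higher in every knockout library. A sum follows its most abundant genes, here Acot12 and Acot1 in the cytosol and Acot13 in mitochondria, and none of these was called. The peroxisomal members Acot3, Acot4 and Acot8 summed to 33.2, 27.9 and 19.5 FPKM in knockout and 19.5, 20.3 and 16.2 FPKM in wild-type libraries, and these sums overlapped. Shares of the family total overlapped between groups, at 55.8 ± 1.76% cytosolic in knockout and 56.7 ± 2.24% in wild-type libraries, and at 28.5 ± 2.70% mitochondrial in knockout and 28.5 ± 0.266% in wild-type libraries (SD, n = 3 each). Within the total, the share of Acot2 was 4.57 ± 1.40% in knockout and 2.24 ± 0.419% in wild-type libraries, and that of Acot7 was 6.74 ± 1.09% in knockout and 9.52 ± 0.796% in wild-type libraries, both without overlap. No test was made of sums or shares, since the members were chosen by name with results of these data known.

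The members did not share one pattern across libraries. Knockout replicate 1 was the highest knockout library for 6 members (Acot1, Acot3, Acot4, Acot8, Acot11 and Acot12), and knockout replicate 2 for the other 4 (Acot2, Acot7, Acot9 and Acot13). Knockout replicate 3 was the highest for 0 members and the lowest for 7. Among wild-type libraries the highest value fell on replicate 1 for 3 members, on replicate 2 for 3 and on replicate 3 for 4. Likeness of profiles was measured as the root mean square difference from the most abundant member, Acot12, over the 6 libraries after centring log2(FPKM + 1). Of 10632 genes compared, the closest were Zzef1 and Vps26a (0.0397 each), Rmnd5a (0.0412), Pgk1-rs7 (0.0469) and Sntb2 (0.0487). None of these was called, but values were not scaled, so genes close to Acot12 must have a difference about as small as its own. Among members Acot13 came nearest (0.0749, rank 106), and Acot3 (0.558), Acot2 (0.537) and Acot1 (0.449) were farthest. A gene with larger swings between libraries lies farther away by this measure even where its pattern is alike.

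**Figure D4:**
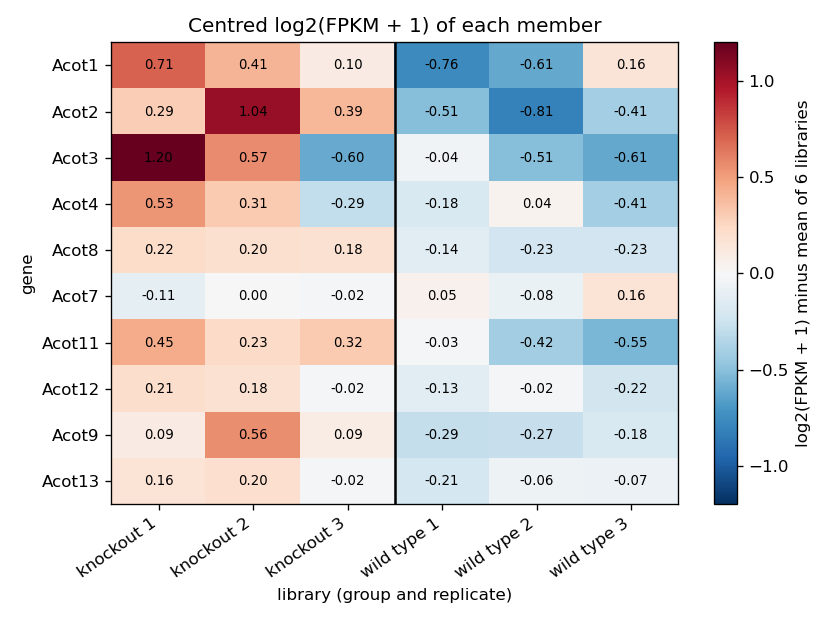
Log2(FPKM + 1) of each member (rows) minus its mean over the 6 libraries, with knockout libraries in the left columns and wild-type libraries in the right ones, red above and blue below the mean. Acot1, Acot2 and Acot3 carry the strongest colours, and knockout replicate 3 is clearly below the mean for Acot3 (-0.60) and Acot4 (-0.29).

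Thioesterase relatives outside the family were not higher in knockout libraries. Them4, a mitochondrial hotdog-fold thioesterase, had 8.98, 8.18 and 10.1 FPKM in knockout libraries, against 12.4, 12.7 and 12.2 FPKM in wild-type libraries. All knockout libraries were lower, and Them4 fell by 0.42 on the log2 scale (SE 0.095, limma adjusted p = 0.0439). That call was lost without knockout replicate 1 (limma adjusted p = 0.0824) or 2 (0.138) and without wild-type replicate 1 (0.112), 2 (0.133) or 3 (0.0788). Baat, which shares the type I fold but joins bile acids to amino acids, had 95.9 ± 4.45 FPKM in knockout and 110 ± 8.24 FPKM in wild-type libraries (SD, n = 3 each), a difference of -0.20 that did not pass (limma adjusted p = 0.217). Them5 was listed at 0 in knockout replicates 1 and 3 and had at most 2 fragments in any library.

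Of the acyl-CoA synthetases, which carry out the opposite reaction, 22 were listed and 15 were tested, with 5 called higher and 1 lower and a median difference of 0.14. Over all genes tested, 5.30% were called higher and 1.60% lower, with a median of 0.07. The 5 became 1 on the median-of-ratios scale, 2 on the quantile-normalized scale, 3 without the eBayes trend and 1 each with no filter or a 2-fold minimum. Acss2, the acetyl-CoA synthetase of cytosol and nucleus, had 28.5, 27.1 and 30.0 FPKM in knockout libraries, against 78.3, 70.7 and 57.1 FPKM in wild-type libraries. It fell in every knockout library, by 1.23 on the log2 scale (SE 0.123, limma adjusted p = 0.00354), and stayed called with any single library left out. Acss3, the mitochondrial synthetase that activates propionate, was 14.8 ± 2.09 FPKM in knockout and 5.43 ± 1.79 FPKM in wild-type libraries (SD, n = 3 each) and rose by 1.33 (limma adjusted p = 0.0117), a call lost without knockout replicate 2 (limma adjusted p = 0.0567). Acsf2 (91.4 ± 2.73 against 67.0 ± 3.31 FPKM, knockout against wild type) and Acsm3 (47.1 ± 5.82 against 31.7 ± 3.12 FPKM, knockout against wild type), both medium-chain synthetases, rose by 0.44 (limma adjusted p = 0.0224) and by 0.55 (limma adjusted p = 0.0369). Both were sensitive to single libraries: the limma adjusted p reached 0.0841 for Acsf2 and 0.131 for Acsm3 across the alternatives, and of the 6 fits with a library left out, 0 and 1 kept the call. Acsf3 and Slc27a4 completed the 5, and were named after their values had been seen. The count called higher was 1 when knockout replicate 1 was left out, 0 for knockout replicate 2, 2 for knockout replicate 3 or wild-type replicate 1, and 1 for wild-type replicate 2 or 3, while Acss2 was the 1 gene called lower each time.

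Genes that bind acyl-CoA or move acyl groups between coenzyme A and carnitine or across the peroxisomal membrane made a list of 16, of which 14 were tested, 3 were called higher and none was lower, with a median of 0.33 (5.30% called higher and a median of 0.07 over all genes tested). The 3 became 1 each on the median-of-ratios scale, without the eBayes trend or with a 2-fold minimum, 0 with no filter, 2 on the quantile-normalized scale or with a pseudocount of 0.1, 5 with voom and 6 as TPM. Cpt1a, which makes long-chain acylcarnitine at the outer mitochondrial membrane, was 186 ± 18.7 FPKM in knockout and 118 ± 13.2 FPKM in wild-type libraries (SD, n = 3 each) and rose by 0.65 (limma adjusted p = 0.0215). Crat, the carnitine acetyltransferase, rose by 0.76 (29.9 ± 3.27 against 17.6 ± 4.97 FPKM, knockout against wild type, limma adjusted p = 0.0475), and Abcd2, a peroxisomal importer of very-long-chain acyl-CoA, rose by 1.13 (5.31 ± 1.41 against 1.95 ± 0.938 FPKM, knockout against wild type, limma adjusted p = 0.0499). Crot, the peroxisomal carnitine octanoyltransferase, had 338 ± 22.4 FPKM in knockout and 260 ± 9.41 FPKM in wild-type libraries (SD, n = 3 each) and did not pass (0.38, limma adjusted p = 0.0509). The count of calls was 1 when knockout replicate 1 was left out, 0 for knockout replicate 2 or 3, 3 for wild-type replicate 1, and 0 for wild-type replicate 2 or 3.

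Of 10 regulators listed, 7 were tested, and Ppara alone was called. Over all genes tested, 5.30% were called higher and 1.60% lower. All 7 had a positive difference, as did 63.6% of all genes tested, with a median of 0.29 against 0.07. Ppara had 57.3, 69.6 and 57.9 FPKM in knockout libraries, against 45.2, 37.1 and 34.2 FPKM in wild-type libraries, without overlap. Ppara rose by 0.66 ± 0.128 (limma adjusted p = 0.0275), a call lost without knockout replicate 2 (limma adjusted p = 0.1) or 3 (0.0587) and without wild-type replicate 2 (0.102) or 3 (0.0649). No filter (limma adjusted p = 0.0922), a replicate block (0.0515) and a 2-fold minimum ended it as well. Pparg, a nuclear receptor of fat storage, was 6.69 ± 1.68 FPKM in knockout and 3.61 ± 1.03 FPKM in wild-type libraries and did not pass (0.74, limma adjusted p = 0.0736). Ncor1, a corepressor (0.29, limma adjusted p = 0.108), and Rxra, the partner receptor of PPARα (0.23, limma adjusted p = 0.211), did not pass either.

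Cell type markers were set beside these values. Hepatocyte markers summed to 41670 to 49860 FPKM in knockout and 42920 to 52567 FPKM in wild-type libraries, and 1 of the 6 tested, Cps1, was called lower in knockout. Kupffer cell markers summed to 215 to 244 FPKM in knockout and 205 to 231 FPKM in wild-type libraries (1 of 7 called, Vsig4, lower). Endothelial markers summed to 82.7 to 96.3 FPKM in knockout and 73.8 to 87.1 FPKM in wild-type libraries (2 of 6 called, Lyve1 and Pecam1, higher). Over all genes tested, 5.30% were called higher and 1.60% lower. With a library left out, Pecam1 kept its call only without knockout replicate 1, and Vsig4 only without wild-type replicate 3. Pecam1 also lost it on the median-of-ratios and quantile-normalized scales, whereas Lyve1 stayed called throughout. Stellate markers (150 to 195 against 149 to 173 FPKM, knockout against wild type), cholangiocyte markers (36.8 to 97.8 against 30.0 to 60.6 FPKM), lymphocyte markers (3.32 to 7.23 against 2.76 to 4.18 FPKM) and adipocyte markers (0 to 1.73 against 0 to 0.454 FPKM) had no gene called among the 6, 4, 1 and 0 that were tested. No marker was at 0 in all libraries. All of these sums overlapped between groups, but a sum follows its most abundant genes, such as Alb (mean 31203 FPKM in knockout and 32025 FPKM in wild-type libraries). Single markers did separate: 3 of 6 hepatocyte markers were lower in every knockout library, and 4 of 6 endothelial and 2 of 6 stellate markers were higher. Of 7 Kupffer cell markers, 2 were separated higher and 2 lower. Over all genes tested, 23.4% were separated higher and 7.81% lower. Non-hepatocyte markers were present in libraries labelled as hepatocytes, and their part in the thioesterase values was not tested.

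**Figure D5:**
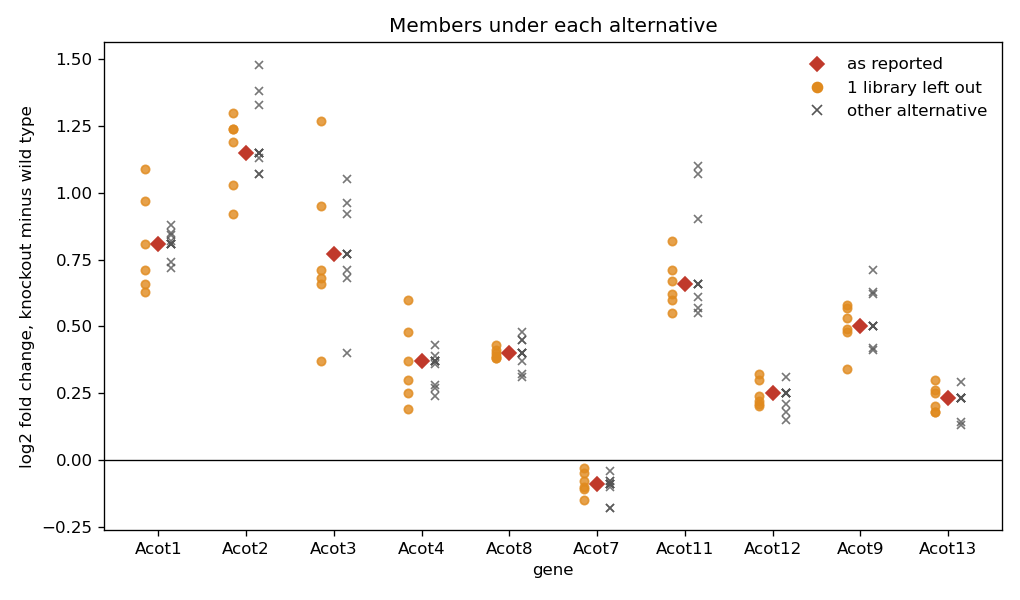
Log2 difference (knockout minus wild type) of each member as reported (red diamonds), with 1 library left out (orange circles) and under the other alternatives (grey crosses). Acot7 lies below 0 and the other 9 members above 0 under every alternative that tested them, and Acot3 has the widest spread with a library left out, between 0.37 and 1.27.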

How the data were processed

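Values were deposited by the authors as FPKM, 1 value per gene symbol and library, in a single table of all 6 libraries. The submitters' processing notes name HISAT2 and Bowtie 0.12.2, and the mouse builds mm10 and mm8. What each was used for, the annotation, the strand setting and the handling of reads with several matches are not given in the sources used here. Libraries came from 1 ug of Trizol-extracted RNA and a TruSeq kit, per the labels' protocols.

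On log2(FPKM + 1), limma 3.58.1 (R 4.3.3; lmFit and two-sided eBayes, trend on) compared the genotypes with no other term, for genes averaging 1 FPKM or more, and p-values were adjusted by Benjamini-Hochberg over all of them. Such differences understate changes of low genes. An exact permutation test over libraries stood beside it. The script was tested on simulated data, where 74.7% of 99 genes changed 2-fold and 96% of 100 changed 4-fold were recovered among 10581 genes. Of 177 calls there, 7 fell on unchanged genes. Changes smaller than 2-fold were not simulated, and directions were drawn at random, whereas most calls in these data were higher. FPKM steps gave whole fragments for 17549 of 17549 genes above 0 in at least 4 libraries, within 0.001 plus 5e-08 of the count and at most 0.05. Very large counts were allowed, where a whole-number fit is easily found, so this full share does not show that the counts are right. The smallest fitting counts were taken, so a divisor common to all libraries would be lost. Totals, set from 253 of 1332 single-transcript genes, are estimates. Library correlations on the log scale were 0.9825 to 0.9876 within and 0.957 to 0.9785 across groups. Gene positions come from GENCODE vM21 on GRCm38, which corresponds to mm10, and are not part of the deposited values. Coding sequences were aligned with mafft 7.526. The members and lists were chosen with earlier results of these data known. Genes outside the family were named by rule as up to 4 of each list with the smallest p, all thioesterase relatives, and the 5 nearest profiles. Tf, a hepatocyte marker, had no matching symbol. Alternatives tried were a pseudocount of 0.1, no filter or one at 5 FPKM, TPM, median-of-ratios and quantile scaling, eBayes without trend or robust, array weights, a replicate block, a 2-fold minimum, each library left out, and voom on recovered fragments.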

Additional observations from a re-analysis of the deposited data

How the results depend on the processing

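All 10 members kept their sign under every alternative that tested them. The count of members called higher was 3 as reported, against 0 with no filter, 1 each with median-of-ratios scaling, quantile normalization, a replicate block and a 2-fold minimum, and 0 to 2 with 1 library left out; Acot2, Acot8 and Acot11 lost calls there, as the report gives for single libraries. Over all genes, 564 were higher as reported, against 88 with no filter, 990 as TPM, 352 with median-of-ratios scaling, 371 with quantile normalization, 280 with a replicate block, 120 with a 2-fold minimum and 94 to 422 with 1 library left out. Lower genes numbered 170 as reported, against 58 with no filter, 67 with a 2-fold minimum and 54 to 119 with 1 library left out. The cause of these moves was not tested beyond the construction of each alternative (more genes tested, fewer libraries, a stricter rule). voom on recovered fragments, chosen after seeing the data, called 797 higher and 198 lower, with 3 members higher. Without the filter Acot2 (adjusted p = 0.0945), Acot8 (0.0626) and Acot11 (0.147) were not called in limma. Acot11 was also not called in limma with a pseudocount of 0.1 (adjusted p = 0.0563) or array weights (0.0677). Whether the labels' replicate numbers pair the samples could not be decided from 3 libraries per group. Deviations of same-numbered libraries correlated at 0.17, -0.0625 and 0.0966, and not every library correlated best with its own number. Such deviations sum to 0 within each group, so weak correlations between them cannot show that pairing is absent. With the replicate block, 280 genes were higher and 1 member, Acot2, was called. Counting error also limits the members with few fragments: the lowest library held 79 for Acot3, 85 for Acot9, 137 for Acot2 and 142 for Acot11. The lower depth of knockout replicate 1 adds counting error to its values.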
